A study of Homo sapiens with 4 samples.

Results

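TEAD1, TEAD2, TEAD3 and TEAD4 are the 4 genes of the human TEAD family of transcription factors. Their loci were examined in TEAD4 ChIP-seq peak lists, so the data show where TEAD4 was found at the genes of its own family, its own gene included. A peak was counted at a locus when its midpoint lay in the gene body or within 50 kb of it on hg19. This placed 47 peaks at the 4 loci, 40 of the 39477 peaks of the MKN28 list and 7 of the 11540 peaks of the SNU216 list. MKN28 and SNU216 are human gastric cancer cell lines, labelled as gastric cancer cells, with no genotype or treatment given. For each line 1 chromatin sample was immunoprecipitated with a TEAD4 antibody from Abnova, and 1 input sample had no antibody. Neither line had replicates, so the 2 libraries are described side by side and no test was made between them. The lists hold no expression values, so the labelled cell type was not checked against markers.

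TEAD proteins bind DNA through the TEA domain, which all members share, and recognise the letters GGAATG or their reverse complement CATTCC. They activate little on their own and work with the co-activators YAP and TAZ, which the Hippo kinases keep out of the nucleus. VGLL proteins compete for the same surface of TEAD. Target genes of YAP and TEAD include several regulators of the pathway itself. TEAD sites are often found at enhancers beside AP-1 sites (letters TGANTCA).

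The gene bodies were TEAD1 at chr11:12695969-12966284 (bands 11p15.3 to 11p15.2), TEAD2 at chr19:49843853-49865714 (19q13.33), TEAD3 at chr6:35441374-35464861 (6p21.31) and TEAD4 at chr12:3068748-3149842 (12p13.33). TEAD1 and TEAD4 run on the plus strand and TEAD2 and TEAD3 on the minus strand. TEAD1 was by far the longest, at 270.3 kb against 81.1 kb for TEAD4, 23.5 kb for TEAD3 and 21.9 kb for TEAD2. The longer loci had more room for peaks, so counts are also given per Mb. In RefSeq (GRCh38.p14) the gene lengths differed from these by at most 0.185 kb, at TEAD4, and positions within that distance of a start depend on the gene model used. Exons and introns were not used here.

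Peaks covered the starts of TEAD1 and TEAD4 in both lines, and no peak covered the start of TEAD2 or TEAD3 in either line. No hg19 gene annotation was used, so the share of all gene starts covered by a peak is not known. The stretches before the starts of TEAD2 and TEAD3, which had no peak, are shown as a description, without a contrast to the covered starts. They are RefSeq promoter sequences of the minus strand on GRCh38.p14, 250 bases up to the start, at chr19:49362417-49362666 for the outermost of the 2 TEAD2 entries and at chr6:35497080-35497329 for TEAD3. The promoters of TEAD1 and TEAD4 were not analysed here.
TEAD2: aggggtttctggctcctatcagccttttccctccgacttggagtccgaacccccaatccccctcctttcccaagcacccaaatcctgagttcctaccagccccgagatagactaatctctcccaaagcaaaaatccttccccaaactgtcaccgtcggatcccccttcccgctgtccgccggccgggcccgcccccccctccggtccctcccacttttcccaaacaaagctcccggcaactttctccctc
TEAD3: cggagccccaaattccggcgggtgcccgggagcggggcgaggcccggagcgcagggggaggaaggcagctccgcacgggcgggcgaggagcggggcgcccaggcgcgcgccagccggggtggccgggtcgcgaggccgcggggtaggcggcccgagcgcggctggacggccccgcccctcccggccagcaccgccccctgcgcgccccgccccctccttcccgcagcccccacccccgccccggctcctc
Both are rich in G and C, at 60.0% for TEAD2 and 84.0% for TEAD3. The whole entries, 300 bases long and reaching 50 bases past the start, hold 64.0% and 81.3%, beside a median of 58.7% over all 34943 promoters of the table. Neither GGAATG nor CATTCC occurs in the 300 bases of either entry, and TGANTCA does not occur on either strand, so no letters are in capitals. Among all promoters, 14.04% hold GGAATG or CATTCC and 7.72% hold TGANTCA. The absence of these letters says nothing about binding elsewhere at the genes.

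**Figure D1:**
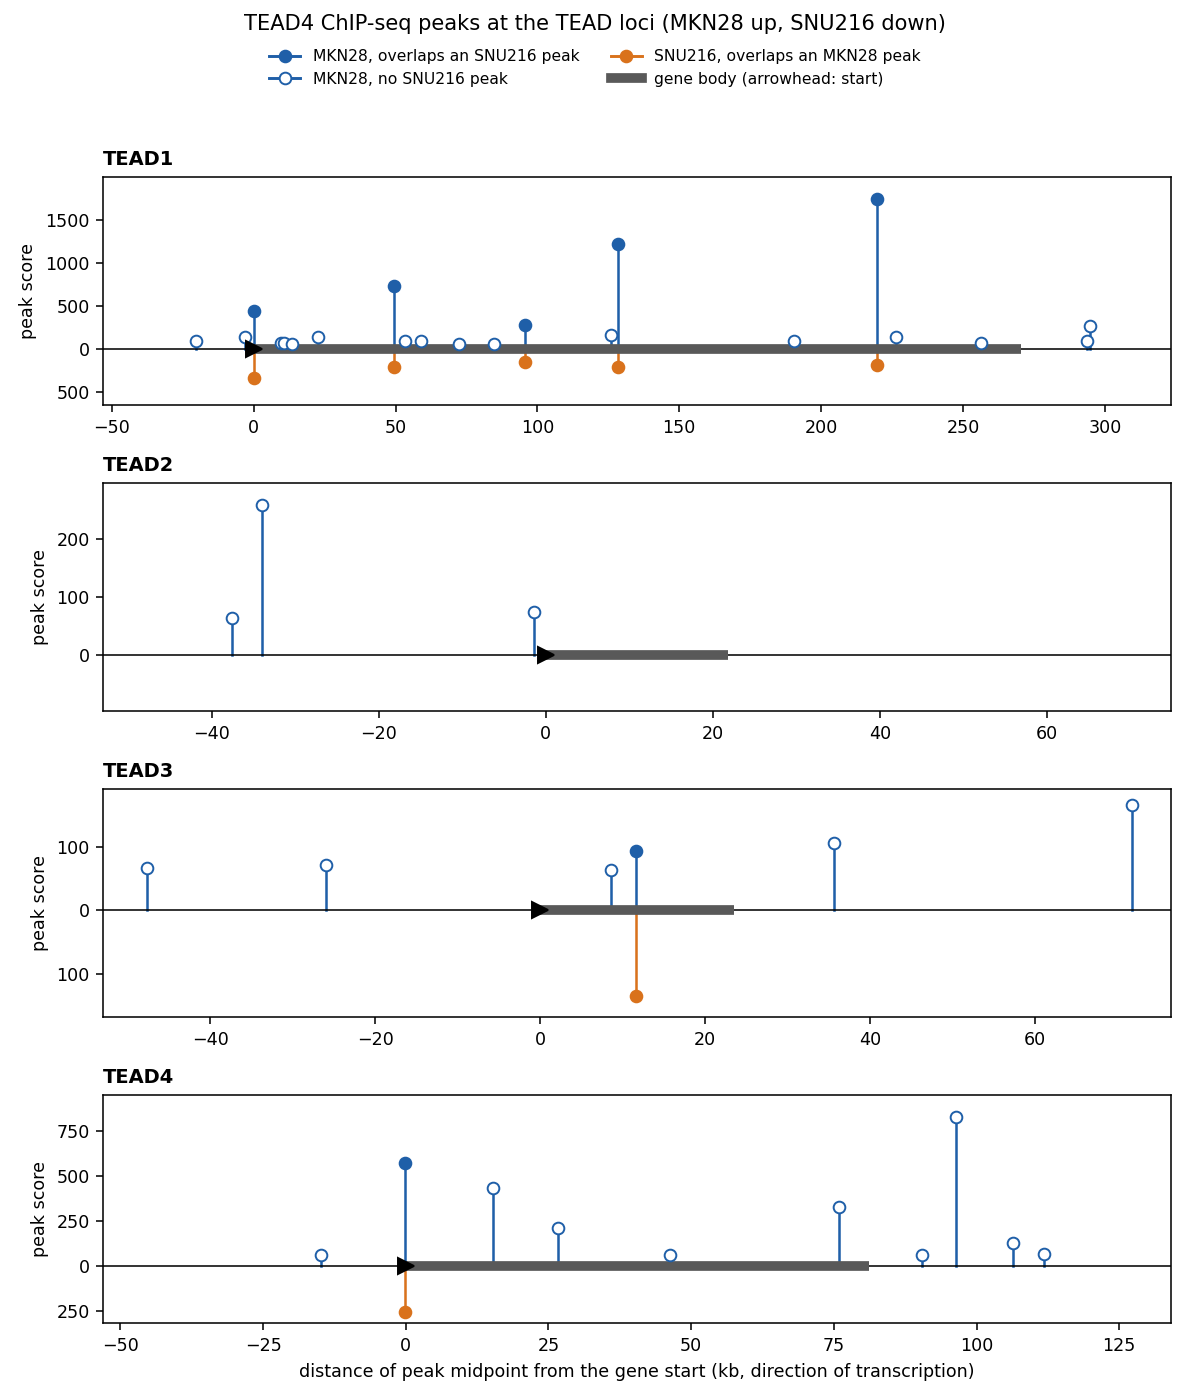
Peaks at each TEAD locus by distance of the midpoint from the gene start (x axis, kb, in the direction of transcription) and by the authors' score (y axis, MKN28 upward, SNU216 downward). Filled circles overlap a peak of the other list; the grey bar is the gene body, and the axes differ between the panels. All 7 SNU216 peaks sit on an MKN28 peak, 5 of them at TEAD1. Of the whole SNU216 list 59.3% do so, and 79.2% of its peaks with a score of at least 100.

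The score is the authors' value from the MACS peak caller. It has no stated scale and moves with sequencing depth, which is unknown here, so each peak was ranked within its own list. Scores ran from 50 to 3170 in MKN28 and from 50.01 to 3117 in SNU216, with medians of 99.8 and 84.7.

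At its own gene, TEAD4 was found at the start in both lines. In MKN28 further peaks lay along the gene body and beyond its end, and in SNU216 there was no other. How often the starts of other genes carried a peak was not counted. The MKN28 list held 10 peaks at the TEAD4 locus, 2 before the start, 4 in the gene body and 4 beyond the end. The start peak (chr12:3068430-3068892) had its midpoint 87.0 bp upstream of the start and scored 572, above 93.7% of the MKN28 list. Its SNU216 partner (chr12:3068447-3068756) had its midpoint 146.5 bp upstream and scored 257, above 86.9% of the SNU216 list. The SNU216 peak lay wholly inside the MKN28 peak.

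The highest TEAD4 locus peak in MKN28 was not at the start. It lay 96.3 kb downstream of the start (chr12:3164648-3165521), 15.2 kb beyond the end of the gene on the side of TSPAN9, a tetraspanin gene. It scored 825, above 96.9% of the list, and the nearest SNU216 peak was 96.5 kb away, at the TEAD4 start. Inside the gene, MKN28 peaks scored 434 at 15.3 kb, 207 at 26.6 kb, 61.1 at 46.3 kb and 325 at 75.9 kb from the start. None of these 4 had an SNU216 partner, beside 17.1% of the whole MKN28 list with one. The one at 15.3 kb stood above 90.4% of its list. Of all MKN28 peaks in the top 10%, 50.2% had a partner. The other peaks were weak or middling, with scores of 58.7 at 14.8 kb before the start, 60.4 at 90.5 kb, 128 at 106.4 kb and 62.4 at 111.8 kb after it. The 10 scores thus fell into a high set of 5, from 207 to 825, 1 peak of 128, and a low set of 4, from 58.7 to 62.4.

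At TEAD1, the family member with the largest gene, peaks ran along the whole gene body. MKN28 had 21 peaks there, 3 before the start, 16 in the body and 2 beyond the end. Their scores ran from 54.6 to 1738 with a median of 97.8, and their widths from 322 to 995 bp. The median distance between neighbouring midpoints was 10.4 kb. The longest stretch without a peak was 62.3 kb, between the peaks at 128.2 and 190.5 kb from the start. SNU216 had 5 peaks, 1 at the start and 4 in the body, scoring from 145 to 332 with a median of 204.

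Each of the 5 SNU216 peaks at TEAD1 overlapped an MKN28 peak, and those MKN28 peaks were the 5 highest of the 21. Of all SNU216 peaks with a score of at least 100, 79.2% overlapped an MKN28 peak. In the whole MKN28 list, peaks with a partner also scored higher, with a median of 226 against 88.6 for those without. The start peak (chr11:12695649-12696173 in MKN28) had its midpoint 58.0 bp upstream of the start and scored 446. Its SNU216 partner (chr11:12695791-12696144) was centred 1.5 bp upstream and scored 332. Both stood near the same place in their lists, above 90.8% of MKN28 and 91.3% of SNU216 peaks.

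The other 4 sites found in both lines lay inside TEAD1. The site 49.4 kb from the start (chr11:12744915-12745909 in MKN28) scored 727 in MKN28 and 204 in SNU216. The site at 95.7 kb (chr11:12791325-12792065) scored 279 and 145. The site at 128.2 kb (chr11:12823826-12824574) scored 1225 and 212. The site at 219.6 kb (chr11:12915233-12915992) scored 1738 and 182. The last of these was the highest of all 40 MKN28 peaks at the TEAD loci, with rank 157 in the whole list, above 99.6% of it. In SNU216 the same site stood above 79.3% of the list, with rank 2391.

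The order of these TEAD1 sites differed between the lists. In MKN28 the start peak ranked 4 of the 5, and the site at 219.6 kb scored 3.90 times as high. In SNU216 the start peak ranked highest, and the site at 219.6 kb scored 0.549 times as high. The site at 95.7 kb was the lowest of the 5 in both lists, and the sites at 128.2 and 49.4 kb kept ranks 2 and 3 in SNU216 and in MKN28. These ratios are within 1 list each and carry no error, since each line has 1 library.

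**Figure D2:**
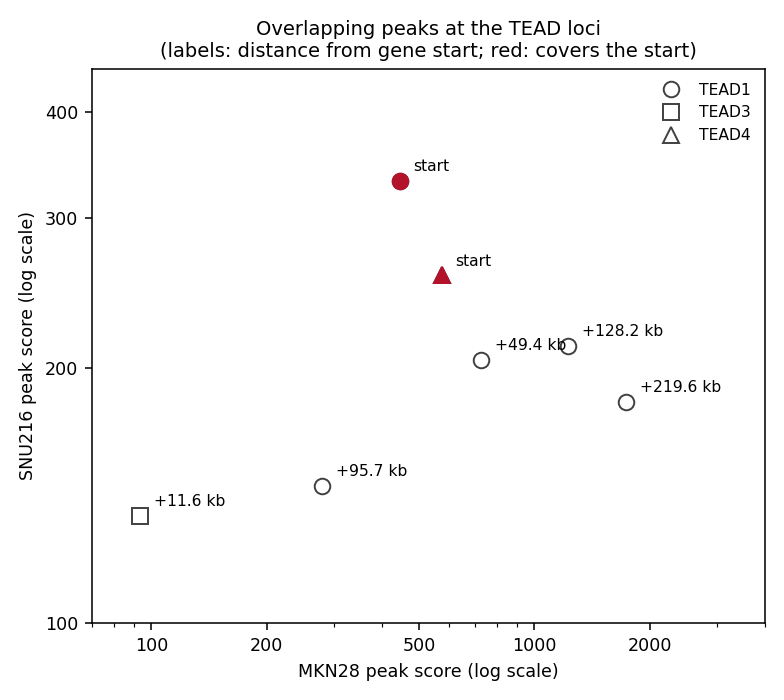
Scores of the 7 pairs of overlapping peaks, MKN28 on the x axis and SNU216 on the y axis, both on log scales. Each point is a pair, labelled by the distance of the MKN28 midpoint from the gene start. The 2 start peaks (red) are the highest pairs in SNU216, at 332 and 257, while 3 pairs inside TEAD1 are the highest in MKN28, at 727 to 1738.

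The 16 MKN28 peaks at TEAD1 without an SNU216 partner scored from 54.6 to 270, with a median of 93.8. The highest was the outer of a pair 24.3 kb beyond the end of the gene (chr11:12990230-12990844), on the side of RASSF10, a member of the RASSF family of genes, and it scored 270. Its neighbour 0.795 kb away scored 97.8. Another peak close before the start, at 2.91 kb upstream, scored 136. A peak at 126.0 kb scored 164 and lay 2.27 kb from the SNU216 peak of the 128.2 kb site, the shortest distance of any unpartnered MKN28 peak at the TEAD loci. In all, 4 of the 33 unpartnered MKN28 peaks at the 4 loci were within 5 kb of an SNU216 peak. The median distance for all 33 was 24.0 kb. Such distances were not computed over the whole MKN28 list, so it is not known whether these values are usual.

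TEAD3 carried weaker peaks, and 1 site inside the gene was common to both lines. MKN28 had 6 peaks at the locus, 2 in the gene body and 2 on each side. The common site (chr6:35452983-35453603 in MKN28, chr6:35453073-35453390 in SNU216) lay 11.6 kb downstream of the start. It scored 93.6 in MKN28 and 134 in SNU216, above 46.9% and 69.4% of the lists. By standing in the list, this pair and the TEAD1 start pair were higher in SNU216, and the other 5 of the 7 pairs were higher in MKN28. The other peak in the body, 8.54 kb from the start, scored 62.7 in MKN28 and was the nearest to the TEAD3 start in either list.

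In the whole MKN28 list 17.1% of peaks had a partner, and the 4 on the flanks of TEAD3 had none. They scored 66.5 and 71.9 at 47.7 and 26.0 kb before the start, on the side of TULP1 and FKBP5, and 105 and 165 at 35.6 and 71.8 kb from the start on the other side, where RPL10A and FANCE lie. FKBP5 encodes a co-chaperone of steroid receptors and RPL10A a ribosomal protein. The peak of score 165 (chr6:35392869-35393341) was the highest of the locus and lay 48.3 kb from the gene, the farthest of any member. The nearest MKN28 peak outside the limit was 55.6 kb from TEAD2 and scored 147. The nearest SNU216 peak outside it was 71.9 kb from TEAD3 and scored 321, above every SNU216 member except the TEAD1 start peak.

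TEAD2 had the fewest peaks. No peak of either list had its midpoint in the gene body, and SNU216 had none at the locus at all. An empty stretch was the usual case in SNU216, since 73.0% of 24905 windows of this length along the genome held no SNU216 peak. The 3 MKN28 peaks all lay before the start, at 1.42 kb with a score of 74.9, at 34.0 kb with 259 and at 37.6 kb with 64.0. The first (chr19:49866846-49867424) is in a stretch where genes crowd together, since RefSeq shows DKKL1 overlapping the start side of TEAD2 and CD37 its end, and it cannot be given to TEAD2 alone. The nearest SNU216 peak was the same for all 3, with a score of 95.6, and lay 366 to 402 kb from them. A locus without a called peak stayed below the authors' threshold, and TEAD4 may still have been there.

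**Figure D3:**
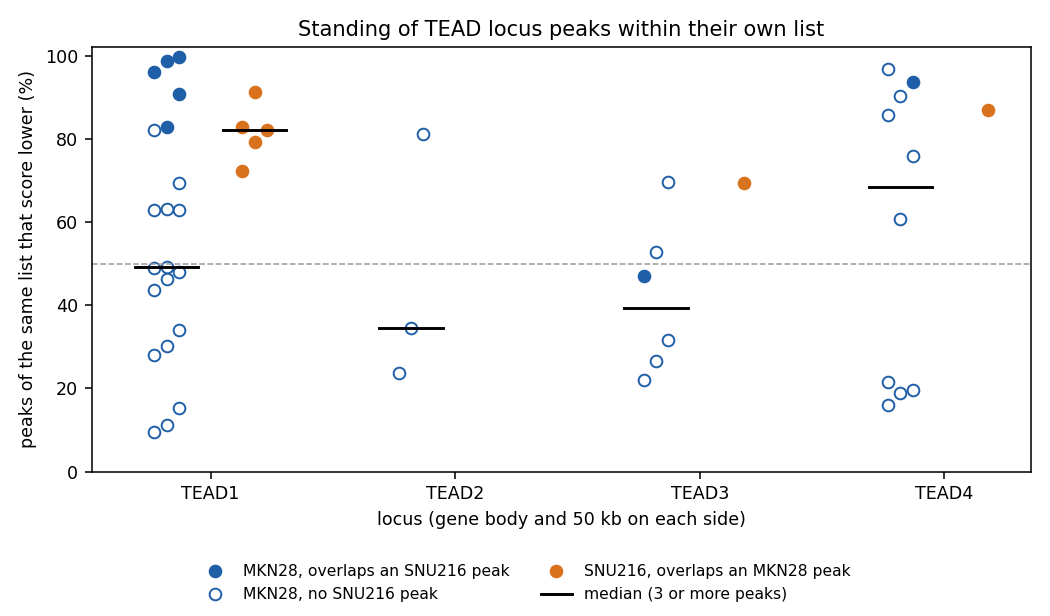
Standing of each TEAD locus peak in its own list, as the percent of peaks of that list with a lower score (y axis), by locus (x axis) and line (colour). Filled points overlap a peak of the other list, black bars are medians where a locus had 3 or more peaks, and the dashed line is the middle of a list. At TEAD1 the 5 filled MKN28 points lie above all the open ones. Peaks with a partner also score higher over the whole MKN28 list, with a median of 226 against 88.6.

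By standing in the list, the TEAD4 locus had the highest median of the 4 loci in MKN28. The median peak stood above 68.4% of the list at TEAD4, 49.1% at TEAD1, 39.3% at TEAD3 and 34.6% at TEAD2. The highest peaks were at TEAD1 and TEAD4: of the 7 MKN28 members in the top 10% of the list, 4 were at TEAD1 and 3 at TEAD4. Over the 40 MKN28 members the median score was 97.5, beside 99.8 in the whole list. Of the 40, 19 scored 100 or more, beside 49.9% of the list. In SNU216 the 7 members had a median score of 204 beside 84.7 in the whole list, and all 7 scored at least 100 beside 42.2% of the list.

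The share of members found in both lines can be set beside the whole lists. In MKN28, 7 of 40 members (17.5%, 95% Clopper-Pearson interval 7.34 to 32.8) overlapped an SNU216 peak, beside 17.1% of the whole list. The 2 shares were close. Of the members that scored 100 or more, 6 of 19 did so (31.6%, 12.6 to 56.6), beside 27.3% of all MKN28 peaks with such scores. Of those under 100, 1 of 21 did so (4.76%), beside 6.92% of the list. In the top 10% of the list, 5 of 7 members did so (71.4%, 29.0 to 96.3), beside 50.2% of all such peaks. In SNU216, 7 of 7 overlapped an MKN28 peak (59.04 to 100%), beside 59.3% of the whole list and 79.2% of SNU216 peaks with a score of at least 100. The interval of these 7 peaks holds both of those shares, so a difference was not detectable with so few peaks. The intervals cover counting error only, and neighbouring peaks are not independent of each other.

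Partner peaks coincided closely in position. The midpoints of the 7 pairs were 9.5 to 68.0 bp apart, and 6 of the 7 SNU216 peaks lay wholly inside their MKN28 partner. The MKN28 peak was the wider in all 7 pairs. Over the whole lists, peaks with a partner were also wider in MKN28, with medians of 618 bp against 444 bp in SNU216. Offsets and nesting were not computed for all pairs of the lists, so they are not shown to be particular to the TEAD loci. Widths of the MKN28 members with a partner ran from 463 to 995 bp with a median of 741 bp, beside 618 bp for all MKN28 peaks with a partner. Members without a partner had a median of 529 bp, beside 508 bp in the list. The SNU216 members had a median width of 496 bp, beside 444 bp for all SNU216 peaks with a partner.

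**Figure D4:**
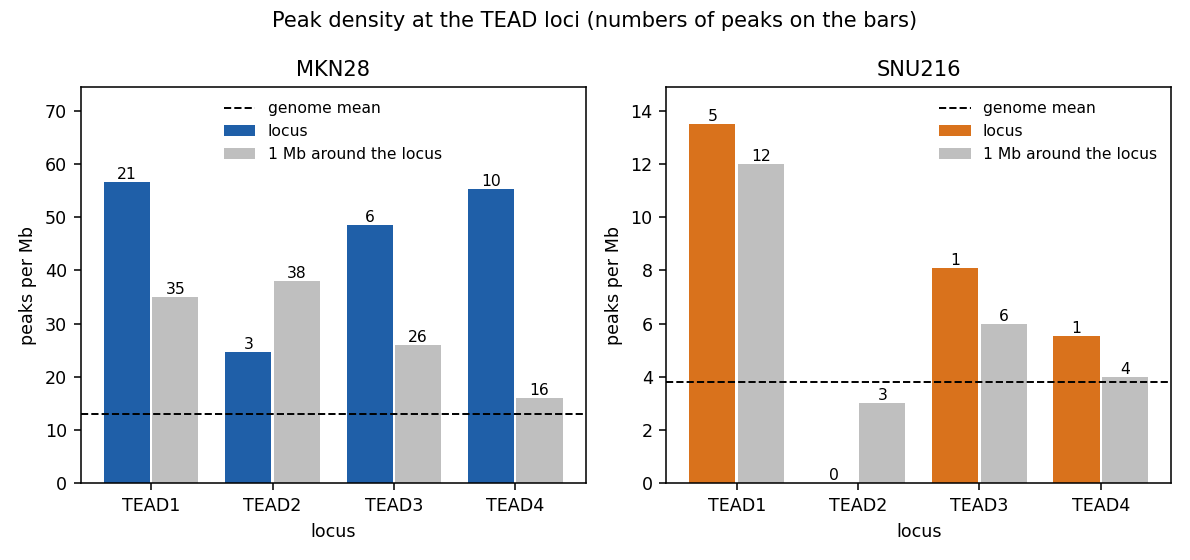
Peaks per Mb (y axis) at each TEAD locus (coloured bars) and in the 1 Mb around it, 500 kb on each side (grey bars), for MKN28 and SNU216. Numbers on the bars are peaks, and the dashed line is the mean over chromosomes 1 to 22 and X. In MKN28 all loci except TEAD2 are denser than their surroundings.

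Peaks were dense at TEAD1, TEAD3 and TEAD4 in MKN28, though at TEAD3 only 2 of the 6 peaks scored 100 or more. TEAD1 had 56.7 peaks per Mb, TEAD4 55.2, TEAD3 48.6 and TEAD2 24.6, beside a genome mean of 12.99. In gene bodies alone TEAD3 had 85.1 per Mb, on 2 peaks, against 59.2 for TEAD1, 49.3 for TEAD4 and 0 for TEAD2. The surroundings were also denser than the mean, with 35.0 peaks per Mb in the 1 Mb around TEAD1, 38.0 around TEAD2, 26.0 around TEAD3 and 16.0 around TEAD4. TEAD4 stood out most from its surroundings, at 3.45 times their density, against 1.87 times for TEAD3, 1.62 times for TEAD1 and 0.648 times for TEAD2. In SNU216, TEAD1 had 13.5 peaks per Mb, TEAD3 8.10, TEAD4 5.52 and TEAD2 0, beside a genome mean of 3.79. The values of TEAD3 and TEAD4 rest on 1 peak each. The 1 Mb around TEAD1, TEAD2, TEAD3 and TEAD4 held 12, 3, 6 and 4 SNU216 peaks. With 100 kb on each side TEAD3 held 5 SNU216 peaks, as many as TEAD1, so the order of the loci depends on that distance.

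Windows of the same length, laid end to end along chromosomes 1 to 22 and X, give the range these counts can take. For TEAD1, 1.27% of 8187 windows held at least as many MKN28 peaks and 8.13% at least as many SNU216 peaks. For TEAD4, 3.32% of 16755 windows held at least 10 MKN28 peaks, while 35.3% held at least the 1 SNU216 peak. For TEAD3 the shares were 6.50% in MKN28 and 27.4% in SNU216. For TEAD2, 23.2% of windows held at least 3 MKN28 peaks, and 73.0% held no SNU216 peak, like the locus itself. A window of the TEAD1 length held a median of 3 MKN28 peaks and 1 SNU216 peak. The windows include gene deserts and unsequenced gaps, while the loci were chosen as genes, so these shares are descriptions and not tests. Among windows with a peak in either list, the shares were 38.0% for TEAD2 and 10.6% for TEAD3 in MKN28 and 44.6% for TEAD3 in SNU216.

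**Figure D5:**
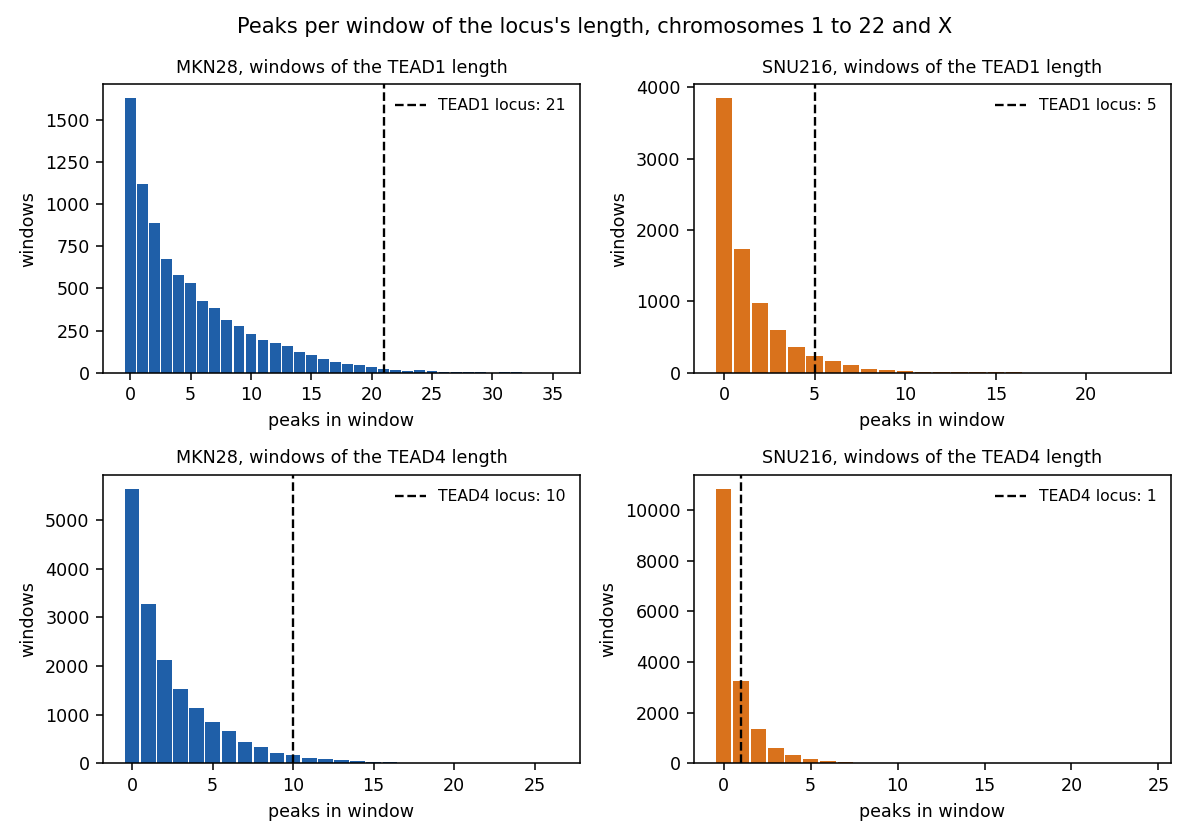
Number of windows (y axis) by the peaks they hold (x axis), for windows of the length of the TEAD1 locus (top) and the TEAD4 locus (bottom), in MKN28 and SNU216. Dashed lines mark the loci: TEAD1 with 21 and 5 peaks and TEAD4 with 10 and 1.

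The lines were set side by side by their counts. MKN28 had 5.71 times as many peaks as SNU216 at the 4 loci, beside 3.42 times in the whole lists. Of the 47 peaks at the loci, 14.9% were SNU216 peaks (6.20 to 28.3), an interval that holds the share in the whole lists, 22.6%. That interval treats the peaks as independent, although all 7 SNU216 peaks overlap MKN28 peaks. It covers counting error only, not the spread between libraries, so it is no test between the lines. At TEAD4 the counts were 10 and 1, in the 1 Mb around it 16 and 4, and on all of chromosome 12 they were 1912 and 376, a ratio of 5.09. At TEAD1 they were 21 and 5, around it 35 and 12, and on chromosome 11 they were 2259 and 755, a ratio of 2.99. At TEAD2 they were 3 and 0, around it 38 and 3, and on chromosome 19 they were 1535 and 335, a ratio of 4.58. At TEAD3 they were 6 and 1, around it 26 and 6, and on chromosome 6 they were 2170 and 755, a ratio of 2.87. The 1 Mb counts stand beside genome means of 12.99 and 3.79 peaks per Mb. The lists differ in length and depth is unknown, so a site found only in MKN28 cannot be told apart from one that fell below the SNU216 threshold.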

How the data were processed

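TEAD4 ChIP-seq and input libraries of MKN28 and SNU216, 1 of each per line, were sequenced on an Illumina Genome Analyzer, per the labels' protocols. CASAVA 1.8, Bowtie2 2.0.0, MACS and the build hg19 appear, without settings, in the submitters' processing notes. The authors deposited 1 peak list per TEAD4 library, not pooled, with a position and a score per peak. No read counts were used, so depth is unknown. The input libraries were not analysed on their own.

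Positions were made 1-based. Members had their midpoint in a gene body or within 50 kb. Overlap meant at least 1 shared bp. Strand came from the RefSeq table for TEAD2 and TEAD3 and is textbook knowledge for TEAD1 and TEAD4. Each locus was described by its highest peaks, peaks within 1 kb of the start and overlapping pairs. Loci with 10 peaks or fewer in a list were given in full, and some other TEAD1 peaks were named after their values were seen. Hippo pathway genes were not counted, since no hg19 annotation was used. RefSeq neighbours are names only. Chromosome lengths came from circlize 0.4.16. Python 3.11.15, numpy 2.4.6, pandas 2.3.3, scipy 1.17.1 and matplotlib 3.10.9 were used, and the overlap and window steps were checked on simulated data. Members and lists were chosen with earlier results of these data known. Alternatives covered the distance, the placing of a peak, the score threshold, the list length, the overlap rule and the windows.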

Additional observations from a re-analysis of the deposited data

How the results depend on the processing

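Of 30 alternative values for the counts and shares over the 4 loci, 25 stayed within 1.5 times the count or within the interval of the share. Of 69 alternative values for single loci, 28 moved past those bounds. Some of the 30 values could not move, such as the SNU216 count when only the MKN28 list was cut. The intervals of the shares are also wide, so these tallies do not measure how stable the results are. MKN28 had 22 peaks in gene bodies alone, 19 with a score of at least 100 and 12 when its list was cut to its 11540 highest-scoring peaks (score 170.9 and above), beside 40. In that shortened list 50% of MKN28 members overlapped an SNU216 peak (21.1 to 78.9), 6 of 12. Of all peaks of that list 35.2% did so. Members left in it were 6 at TEAD1, 5 at TEAD4, 1 at TEAD2 and 0 at TEAD3. In gene bodies alone the MKN28 counts were 4 at TEAD4, 2 at TEAD3 and 0 at TEAD2, beside 10, 6 and 3, and 16 at TEAD1 beside 21. SNU216 had 11 peaks within 100 kb, beside 7, and 8 of the 11 then overlapped an MKN28 peak. TEAD3 then held 5, beside 1, and TEAD1 held 5 at both distances. These counts came from a smaller or larger region or list. The shortened list also held only the higher scores. Over the whole MKN28 list 6.92% of peaks under 100 had a partner, and 27.3% of those at 100 or more. The TEAD3 pair was lost when both peaks had to score at least 100, which left 6 of 7 SNU216 members with a partner. With a score of at least 100, 3.97% of windows held at least the 10 MKN28 peaks of TEAD1 and 3.63% the 6 of TEAD4. For the 2 MKN28 peaks of TEAD3 the share was 19.4%, and for the 1 of TEAD2 it was 38.7%. In SNU216, 1.81% held at least the 5 peaks of TEAD1, 13.6% the 1 of TEAD3 and 18.5% the 1 of TEAD4. Among windows with at least 1 peak in either list, the MKN28 shares were 1.53% for TEAD1, 38.0% for TEAD2, 10.6% for TEAD3 and 4.74% for TEAD4, and the SNU216 shares 9.79% for TEAD1, 44.6% for TEAD3 and 50.4% for TEAD4. Without TEAD1, a choice made with the data in view, 2 of 19 MKN28 peaks had a partner (10.5%, 1.3 to 33.1). No replicate could be left out. No paired analysis was possible because there were no replicates to pair. Unknown depth limits every statement on a site found in 1 list.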
